A study of Mus musculus with 6 samples.

Results

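The transcripts of the mitochondrial genome were examined in primary aortic endothelial cells (EC) of adult C57BL/6 mice of WT genotype, transduced with a Meis1-OE vector, which overexpresses the transcription factor Meis1, or with a YFP-CTRL vector. Every row of the gene count table whose symbol begins with mt- was taken, which gave 37 of 54429 rows. These were 13 protein-coding (mRNA) rows, 2 rRNA rows and 22 tRNA rows. Each condition had 3 libraries, named here by the letters of the deposited columns. Wherever values of single libraries are listed, they run from A to C within each condition. Both conditions shared every step other than the vector. Vectors were added 24 h after 100000 purchased EC had been seeded per well and were left on for 48 h. At 72 h a sort kept cells positive for YFP and for the endothelial proteins CD31 and VE-cadherin. RNA came from 300000 cells of the confluent cultures that grew from the sorted cells. The cells were of a single purchased source and had been expanded in culture, so they stand for cultured adult aortic EC and not for the aorta. The libraries were ribodepleted, that is, rRNA was removed before sequencing, so the rRNA rows measure what the depletion left.

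The mitochondrial genome is a small circle present in many copies per cell. A dedicated polymerase, Polrmt, reads both of its strands, heavy and light, into long precursors, and most of the rRNAs and mRNAs are released when the tRNAs between them are cut out. The mRNAs encode core subunits of respiratory complexes I, III and IV and of the ATP synthase (complex V), and the rRNAs form the mitochondrial ribosome. All other proteins of the organelle, including those that transcribe and mature these RNAs, come from nuclear genes. EC are known for drawing much of their ATP from glycolysis.

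The 37 genes had the same start and end in the annotation of the files' build, mm10 (RefSeq GRCm38.p6), and in that of the reference genome used for sequence, NCBIM37 (GENCODE vM1). Of the 15 rRNA and mRNA genes, 14 lay within 2 bases of a tRNA gene on at least 1 side. The tRNA genes were 59 to 75 bases long, and 8 of the 22 were read from the minus strand of the reference. Neighbouring mRNA genes overlapped by more than 1 base in 3 places, where a read can belong to either row. In addition, mt-Atp6 and mt-Co3 shared base chrM:8607. The overlap of mt-Atp8 and mt-Atp6, both subunits of the ATP synthase, was 43 bases, that of the complex I genes mt-Nd4l and mt-Nd4 was 7 bases, and that of mt-Nd5 and mt-Nd6, which lie on opposite strands, was 14 bases. The sequences of the 3 longer overlaps are shown because the counts of these pairs rest in part on shared bases. Capitals mark the first codon of mt-Atp6 in the first sequence, the bases common to mt-Nd4l and mt-Nd4 in the second, and the bases paired with the end of mt-Nd6 in the third. They lie at chrM:7927-7969, chrM:10144-10203 and chrM:13536-13565 of NCBIM37, all on the plus strand.
mt-Atp8 and mt-Atp6: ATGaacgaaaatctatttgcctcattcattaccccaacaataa
mt-Nd4l and mt-Nd4: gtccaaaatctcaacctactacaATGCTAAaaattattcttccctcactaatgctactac
mt-Nd5, last 30 bases: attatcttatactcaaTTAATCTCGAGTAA

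Stretches of mitochondrial DNA have also been copied into the nuclear genome, and reads from such a copy and from the organelle cannot be told apart where the sequences are the same. The mitochondrial genome of NCBIM37 was aligned to its nuclear chromosomes. The longest match, chr1:24618374-24623027, ran over 4654 aligned bases at 99.936% identity, with 2 mismatches and 1 gap, and corresponded to chrM:6390-11042. It overlapped 8 of the 15 rRNA and mRNA genes, namely mt-Co1, mt-Co2, mt-Atp8, mt-Atp6, mt-Co3, mt-Nd3, mt-Nd4l and mt-Nd4. Deposited counts were estimates, and a count that is not whole can arise where reads are divided between rows. Of these 8 genes, 6 had such a count in at least 1 library, whereas none of the other 7 had one (tolerance 1e-06). Over the whole table, 7767 to 8411 genes per library had one. At a lower limit of 97% identity, nuclear matches also covered 49.2% of mt-Nd2 and 23.4% of mt-Rnr2, and the counts of both were whole. The predicted gene Gm10222 was identical to mt-Nd4l over all 297 bases. The start of that shared sequence, chrM:9877-9936 with the first codon in capitals, is shown because a read from it matches both genes.
mt-Nd4l and Gm10222: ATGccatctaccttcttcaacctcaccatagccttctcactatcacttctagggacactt
The row of Gm10222 held 0 counts in all 6 libraries, and the whole counts of mt-Nd4l were 17243, 23447 and 19146 in Meis1-OE and 11054, 13175 and 18044 in YFP-CTRL. The values of the 8 genes inside the match are therefore uncertain to the extent that reads were divided.

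Libraries held 34176592 to 47956569 counts. Meis1 was counted 135325 to 157828 times in Meis1-OE and 39 to 85 times in YFP-CTRL libraries, as the labels have it. All 14 endothelial markers listed were detected, with a summed level of 4196 to 5184 CPM (counts scaled to a common library size, TMM-normalized) in Meis1-OE and 5163 to 7124 CPM in YFP-CTRL EC. The leukocyte markers C1qa, C1qb and Tyrobp and the fibroblast marker Lum were at 0. The summed level of 12 smooth muscle or fibroblast markers was 16.2 to 18.4 CPM in Meis1-OE and 34.9 to 54.3 CPM in YFP-CTRL EC, that of 8 leukocyte markers was 69.8 to 106 and 65.1 to 140 CPM, and that of 3 cardiomyocyte markers was 4.03 to 6.01 and 1.32 to 2.62 CPM. Adipocyte markers summed to at most 0.153 CPM. A proliferation score, the mean log2 level of 15 cell cycle genes, was 6.80, 6.70 and 6.72 in Meis1-OE and 4.67, 5.31 and 6.56 in YFP-CTRL, so YFP-CTRL C lay nearest to the Meis1-OE libraries. The predicted gene Gm26917 alone took 8.06% to 10.5% of counts in Meis1-OE and 11.8% to 14.1% in YFP-CTRL libraries.

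Mitochondrial transcripts took a larger share of the counts in each Meis1-OE library than in any YFP-CTRL library. The 37 rows together held 4.16%, 5.88% and 4.22% of counts in Meis1-OE, and 3.61%, 3.37% and 3.72% in YFP-CTRL. The means were 4.75% ± 0.977 and 3.57% ± 0.176 (SD, n = 3 each). The exact permutation test gave p = 0.1 (two-sided, n = 3 against 3), the smallest that 3 libraries against 3 allow, and 0.167 after Benjamini-Hochberg adjustment over 5 measures, so the design could not reach 0.05. With so many counts the 95% Wilson interval of each share was narrow (4.15% to 4.16% for Meis1-OE A), but it covers counting error only, and the spread between libraries was far wider. In bulk RNA a larger share from more transcript per cell and one from more cells rich in it cannot be told apart.

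The mRNA rows accounted for 2.49%, 2.73% and 2.42% of counts in Meis1-OE and for 1.99%, 1.85% and 2.15% in YFP-CTRL. Their conditions did not overlap, with means of 2.55% ± 0.164 and 1.997% ± 0.147 (SD, n = 3 each). The rRNA rows held 1.66%, 3.14% and 1.80% in Meis1-OE and 1.62%, 1.52% and 1.57% in YFP-CTRL libraries. Here Meis1-OE library B stood apart, and Meis1-OE A exceeded YFP-CTRL A by little. Each of these comparisons again had an exact permutation p of 0.1 (n = 3 against 3, adjusted 0.167). Without Meis1-OE B, the difference in the share of all rows went from 1.18 to 0.621 percentage points and that of the rRNA rows from 0.632 to 0.160. When Gm26917 was left out of the totals, the difference for all rows was 1.14 percentage points with no overlap, while the rRNA rows overlapped (exact permutation p = 0.3, n = 3 against 3).

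**Figure D1:**
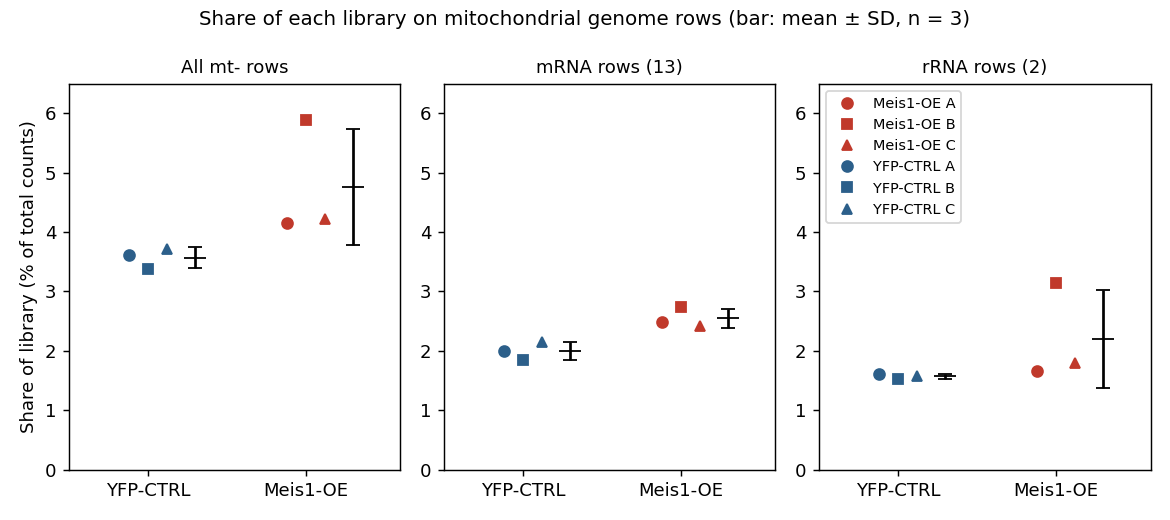
Percent of total counts on all mt- rows, on the mRNA rows and on the rRNA rows (vertical axes) in each YFP-CTRL (blue) and Meis1-OE (red) library, with the mean and SD of 3 libraries as a black bar. All 3 Meis1-OE points lie above all 3 YFP-CTRL points in each panel, and Meis1-OE B, at 5.88% of counts on all rows and 3.14% on the rRNA rows, lies far above the other libraries.

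The separation depended on how the libraries were scaled. TMM, which sets library sizes by the bulk of the genes and not by total counts, gave factors of 1.10, 1.03 and 1.02 to Meis1-OE and 0.994, 0.915 and 0.948 to YFP-CTRL. On that scale the mRNA rows summed to 22598, 26517 and 23817 CPM in Meis1-OE and 20023, 20259.7 and 22667 CPM in YFP-CTRL libraries, so YFP-CTRL C passed Meis1-OE A and the conditions overlapped. In percent of total counts, 10 of the 15 rRNA and mRNA rows were higher in all Meis1-OE than in all YFP-CTRL libraries, as were 29.2% of the 16065 genes tested, and 0 were lower in all of them, as were 7.92% of genes. In TMM-normalized CPM, only mt-Co1 was higher without overlap, against 17.2% of all genes, and 0 rows were lower without overlap, against 15.9%.

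None of the 15 rows passed the test between conditions. At an adjusted p under 0.05, edgeR's quasi-likelihood test called 0 of 15 rows higher and 0 lower, against 6.87% of all genes tested, and 0 had an unadjusted p under 0.05, against 26.2% of all genes. DESeq2 also called 0 rows. The log2 fold change of Meis1-OE over YFP-CTRL was positive for 14 rows and negative for mt-Nd3 only, and its median was 0.26, beside 0.01 over all genes. With library totals in place of TMM, which moved the median of all genes to 0.15, all 15 rows were positive with a median of 0.40, 9 had an unadjusted p under 0.05, beside 28.1% of all genes in that fit, and 0 were called. With libraries scaled to the summed mt- mRNA, which moved the median of all genes to -0.20, 11 rows were positive and 4 were negative. That scale holds the summed mRNA counts equal between libraries, so rises and falls of the mRNA rows must balance on it. Signs there compare a row with the mRNA pool and not with the library.

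The rows shared their high and low libraries. In TMM-normalized CPM, 12 of the 15 rows were highest in Meis1-OE B, 14 were lowest in a YFP-CTRL library, and 13 had YFP-CTRL C as their highest control. On the same scale, YFP-CTRL C was above at least 1 Meis1-OE library in 14 rows. In percent of total counts it could not be so for the 10 rows that were higher in all Meis1-OE libraries. YFP-CTRL C was also the control with the highest proliferation score. With that score as a covariate the median log2 fold change of the 15 rows was 0.06, with 9 positive and 6 negative, and without YFP-CTRL C it was 0.35, with 6 rows at an unadjusted p under 0.05, beside 42.6% of all genes in that fit, and 0 called. Every Meis1-OE library had a higher score than every YFP-CTRL library. Vector and proliferation therefore cannot be told apart, here or in the other results with the score as a covariate. The part of proliferation in these values was not tested.

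The rRNAs had the largest SD relative to the mean of the 15 rows among Meis1-OE libraries and the smallest among YFP-CTRL libraries. mt-Rnr1 (ENSMUSG00000064337.1, chrM:70-1024), the RNA of the small ribosomal subunit, stood at 3220, 6995 and 3659 CPM in Meis1-OE and at 3158, 3108 and 3302 CPM in YFP-CTRL. The YFP-CTRL libraries lay close together, Meis1-OE B was highest, and Meis1-OE A lay within the controls. Its log2 fold change was 0.54 (95% interval -0.13 to 1.20), the largest of the 15 rows, with an adjusted p of 0.277 from edgeR. mt-Rnr2 (chrM:1094-2675), the RNA of the large subunit, stood at 11869.9, 23501 and 14006 CPM in Meis1-OE and 13110.2, 13507 and 13298 CPM in YFP-CTRL libraries. Meis1-OE A was the lowest of all 6 and Meis1-OE B the highest. The estimate was 0.31 on the log2 scale (95% interval -0.28 to 0.90, adjusted p = 0.475 from edgeR), and it turned to -0.04 when Meis1-OE B was left out.

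The 2 rRNAs did not hold a fixed ratio. Counts of mt-Rnr2 were 3.69, 3.36 and 3.83 times those of mt-Rnr1 in Meis1-OE and 4.15, 4.35 and 4.03 times in YFP-CTRL. The ratio was lower in all Meis1-OE than in all YFP-CTRL libraries, a comparison added after the values were seen and given without a test. Summed rRNA counts were 0.668, 1.15 and 0.742 times the summed mRNA counts in Meis1-OE and 0.812, 0.820 and 0.732 times in YFP-CTRL libraries. These ranges overlapped, with a log2 difference of 0.07 (exact permutation p = 0.9, n = 3 against 3, adjusted 0.9) that was -0.16 without Meis1-OE B. How far the depletion of rRNA differed between libraries was not tested.

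Among the mRNAs, levels per length spanned 45.2-fold. In TMM-normalized CPM per kb, averaged over the 6 libraries, the complex IV subunit mt-Co1 was highest at 5367 and the complex I subunit mt-Nd3 lowest at 119, and both held that place in every library. mt-Atp6 (3292 CPM per kb) and mt-Co3 (3163) followed mt-Co1 and exchanged the next places between libraries. mt-Co2 (2287), mt-Nd1 (1812) and mt-Nd4l (1320) came next in that order in every library. mt-Cytb (1182), mt-Nd4 (1089) and mt-Nd5 (1028) exchanged places among themselves. mt-Nd2 (851), mt-Atp8 (564) and mt-Nd6 (336) filled the remaining places in that order in every library. Genes of the same precursor thus differed widely in counts per kb, and the rows of mt-Atp8 and mt-Atp6, which overlap, differed as well. Whether the difference between these 2 rows lies in the RNA or in how reads were counted was not tested. For the 8 genes inside the nuclear match, the levels depend on how reads were divided.

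**Figure D2:**
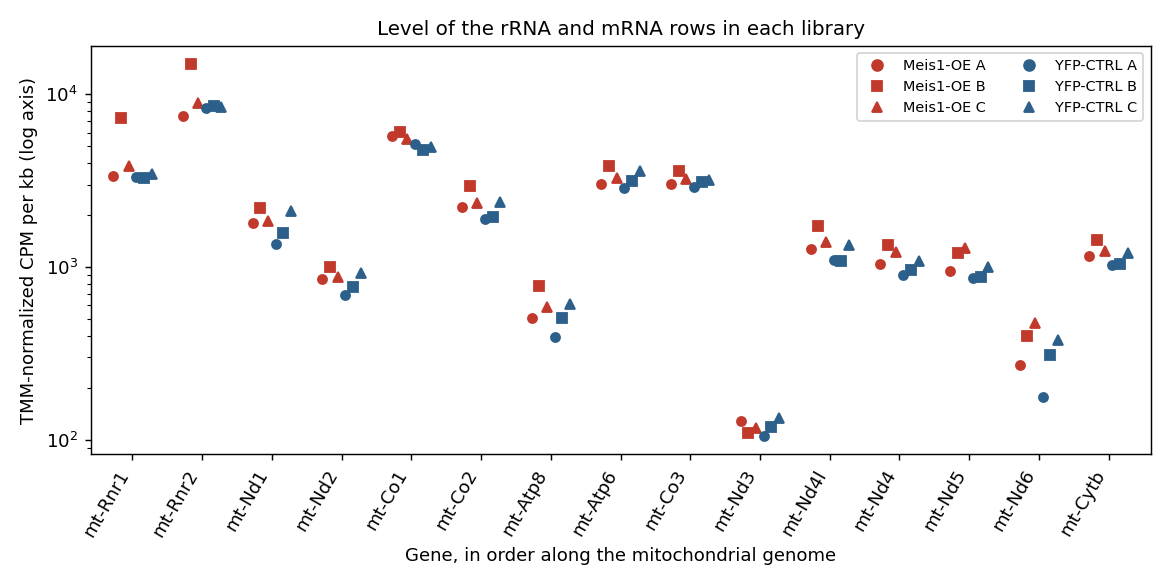
TMM-normalized CPM per kb (log axis) of the 2 rRNA and 13 mRNA genes, in their order along the mitochondrial genome, with 1 point for each Meis1-OE (red) or YFP-CTRL (blue) library. mt-Co1 is the highest mRNA and mt-Nd3 the lowest in every library, and Meis1-OE B is the highest library for 12 of the 15 genes.

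The complex I mRNAs mt-Nd1, mt-Nd2, mt-Nd3, mt-Nd4l, mt-Nd4, mt-Nd5 and mt-Nd6 encode membrane subunits of the enzyme that takes electrons from NADH. mt-Nd5 (chrM:11742-13565) had the smallest adjusted p of the 15 rows. It stood at 1730.0, 2187 and 2341 CPM in Meis1-OE and 1576, 1592 and 1824 CPM in YFP-CTRL. Only YFP-CTRL C lay within the Meis1-OE range. The log2 fold change was 0.33 (95% interval -0.02 to 0.67, adjusted p = 0.209 from edgeR). mt-Nd4 and mt-Nd4l had similar estimates of 0.29 and 0.32 (adjusted p = 0.230 and 0.234 from edgeR). mt-Nd1 and mt-Nd2 had estimates of 0.21 and 0.20, which were -0.17 and -0.04 once the proliferation score was a covariate, and that of mt-Nd2 was -0.01 on the scale of summed mt- mRNA.

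mt-Nd3 (chrM:9459-9806) was the exception in direction. Its level was 44.7, 38.2 and 40.8 CPM in Meis1-OE and 36.9, 41.2 and 46.3 CPM in YFP-CTRL. The highest and the lowest library were both YFP-CTRL. Its log2 fold change was -0.01 (95% interval -0.31 to 0.30, adjusted p = 0.979 from edgeR), and 0.14 with library totals. Meis1-OE B, the highest library for 12 rows, was the lowest Meis1-OE library here.

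mt-Nd6 (chrM:13552-14070) is the only mRNA encoded on the other strand from the remaining 12, so it comes from the other precursor. The start of its reading frame, chrM:14011-14070 on the minus strand of NCBIM37 with the first codon in capitals, shows the base composition that sets this strand apart.
mt-Nd6: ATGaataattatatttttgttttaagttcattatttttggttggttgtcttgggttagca
Guanine made up 28.1% of mt-Nd6 and 11.5% of the other 12 mRNAs together. mt-Nd6 stood at 141, 208 and 247 CPM in Meis1-OE and 92.5, 160 and 196 CPM in YFP-CTRL. In both conditions library A was lowest and library C highest, and the log2 fold change was 0.41 (95% interval -0.30 to 1.12, adjusted p = 0.427 from edgeR). Counts of mt-Nd6 were 0.630%, 0.791% and 1.05% of those of the other mRNAs in Meis1-OE and 0.464%, 0.796% and 0.874% in YFP-CTRL libraries. The conditions overlapped, with a log2 difference of 0.23 (exact permutation p = 0.7, n = 3 against 3, adjusted 0.875) that was -0.05 without YFP-CTRL A. No source used here says that counting was by strand, so reads of mt-Nd6 and reads of the opposite strand at that place cannot be told apart.

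mt-Cytb (chrM:14145-15288), the cytochrome b of complex III, stood at 1319, 1645 and 1409 CPM in Meis1-OE and 1177, 1185 and 1375 CPM in YFP-CTRL libraries. Meis1-OE A lay below YFP-CTRL C, and the log2 fold change was 0.23 (adjusted p = 0.313 from edgeR).

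Complex IV, cytochrome c oxidase, passes electrons to oxygen, and its 3 mitochondrial subunits took 51.96% to 57.6% of the mRNA counts. mt-Co1 (chrM:5328-6872) stood at 8902, 9372 and 8535 CPM in Meis1-OE and 7962, 7321 and 7662 CPM in YFP-CTRL. All Meis1-OE libraries were above all YFP-CTRL libraries. The log2 fold change was 0.22 (95% interval -0.05 to 0.50, adjusted p = 0.266 from edgeR), so the row did not pass the test. mt-Co2 had an estimate of 0.26 (adjusted p = 0.317) and mt-Co3 one of 0.10 (adjusted p = 0.619), both from edgeR, and that of mt-Co3 was -0.11 on the scale of summed mt- mRNA.

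The complex V mRNAs encode 2 membrane subunits of the ATP synthase. mt-Atp6 stood at 2054, 2607 and 2231 CPM in Meis1-OE and 1945, 2152 and 2460.4 CPM in YFP-CTRL libraries. YFP-CTRL C was the second highest of the 6. Its log2 fold change of 0.07 (adjusted p = 0.793 from edgeR) was -0.14 on the scale of summed mt- mRNA. mt-Atp8 stood at 103, 158 and 120 CPM in Meis1-OE and 80.3, 103 and 125 CPM in YFP-CTRL libraries, with an estimate of 0.31 (adjusted p = 0.397 from edgeR) that was -0.04 once the proliferation score was a covariate.

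**Figure D3:**
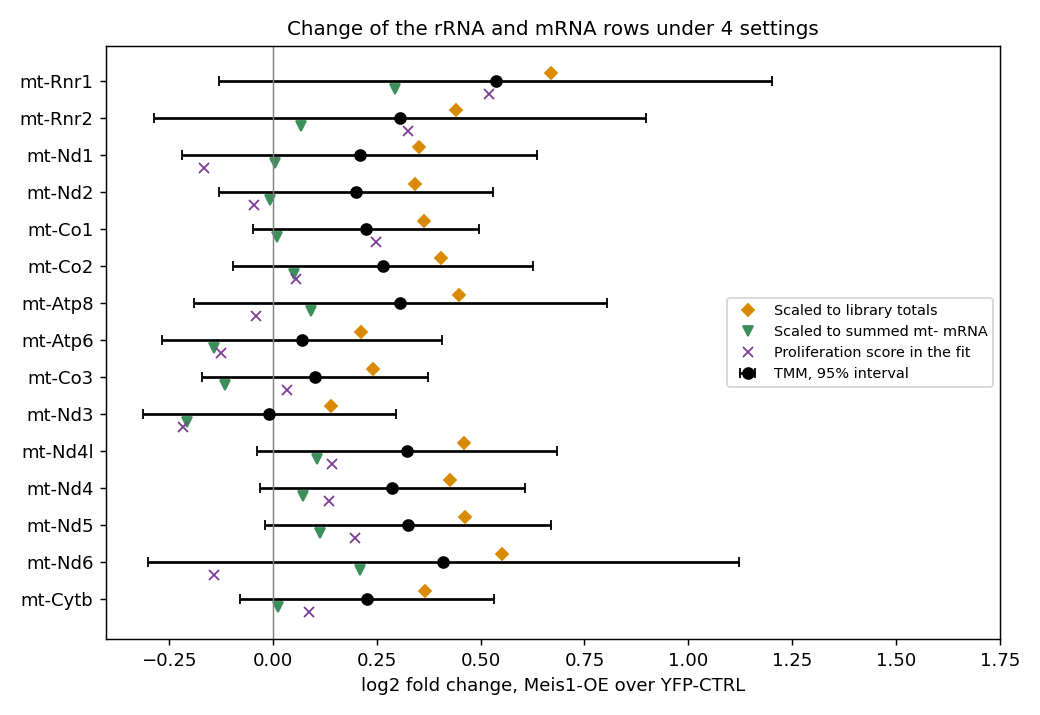
The log2 fold change of Meis1-OE over YFP-CTRL (horizontal axis) for the 2 rRNA and 13 mRNA genes, with the TMM estimate and its 95% interval in black and the estimates from library totals (orange), from scaling to the summed mt- mRNA (green) and once the proliferation score was a covariate (purple). Every 95% interval includes 0, and the estimates are positive for 14 rows with TMM, 15 with library totals, 11 with the mt- mRNA scale and 9 with the covariate. The mt- mRNA scale holds the sum of the mRNA rows equal between libraries, so their rises and falls must balance on it.

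No respiratory complex took a share of the mRNA pool that set the conditions apart. Complex I mRNAs held 29.7% ± 1.58 of mRNA counts in Meis1-OE and 28.4% ± 2.06 in YFP-CTRL EC (SD, n = 3 each, exact permutation p = 0.5). Complex III held 5.99% ± 0.194 and 5.93% ± 0.116 (SD, n = 3, exact permutation p = 0.7), and complex IV held 54.4% ± 1.94 and 54.7% ± 2.80 (SD, n = 3, exact permutation p = 0.9). Complex V held 9.95% ± 0.446 and 10.9% ± 0.679 (SD, n = 3, exact permutation p = 0.2). All 4 overlapped between conditions, at a design whose smallest p is 0.1. Of the 13 single mRNAs, only mt-Co3 took shares of the pool that did not overlap, at 10.5%, 10.6% and 10.6% in Meis1-OE and 11.4%, 11.9% and 10.96% in YFP-CTRL libraries. Its exact permutation p was 0.1 (n = 3 against 3), and 0.78 after adjustment over the 13 mRNAs. These shares sum to the whole, so a larger share of one mRNA lowers the others.

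The 22 tRNA rows held 0 counts in all 6 libraries. A count of 0 allows up to 3 counts per library, or 0.0626 to 0.0878 CPM of the unscaled total. The mRNAs and rRNAs between which these genes lie were counted between 1252 and 1066668 times in the same libraries. No statement on mitochondrial tRNA levels can be drawn from these rows.

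Of 7 predicted nuclear genes listed as copies of mitochondrial DNA, Gm29216 held most counts, with 21510, 26387 and 24261 in Meis1-OE and 10733, 18006 and 15392 in YFP-CTRL. Its TMM-normalized levels did not overlap between conditions, with a log2 fold change of 0.52 (SE 0.16, adjusted p = 0.0917 from edgeR), which missed the threshold. Gm28437 held 829 counts in Meis1-OE A and 0 in the other 5 libraries, and Gm10925 ran from 111 to 2412 counts with no order by condition. The 7 rows summed to 2.07% to 3.15% of the mRNA counts. With them added to the mitochondrial rows, the difference in the share of the library was 1.21 percentage points, against 1.18 without them. The sequence of the Gm28437, Gm28438, Gm28439, Gm28661 and Gm29216 rows was not analysed here.

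With TMM scaling, nuclear genes that act on mitochondrial RNA and DNA had mostly negative estimates, while the mitochondrial rows had mostly positive ones. A list of 85 such genes had 83 tested members, of which 0 were called higher and 5 lower in Meis1-OE EC. That is 6.02% of the list, beside 6.87% of all genes called in either direction and 2.73% called lower. The log2 fold changes were negative for 56 and positive for 27, with a median of -0.13 beside 0.01 over all genes. Signs of the list were counted with TMM only. Library totals moved the median of all genes to 0.15, so the split may differ on that scale. Without overlap between conditions, 30 were lower (15.9% of all genes) and 6 higher (17.2% of all genes).

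The 5 called genes were Pus1, Nsun2, Tbrg4, Pde12 and Twnk. Pus1, a pseudouridine synthase that modifies tRNAs, stood at 30.02, 28.6 and 28.9 CPM in Meis1-OE and 50.8, 46.8 and 41.8 CPM in YFP-CTRL libraries, with a log2 fold change of -0.67 (adjusted p = 0.0206 from edgeR). Nsun2, an RNA cytosine methyltransferase of nuclear and mitochondrial tRNAs, stood at 82.3, 80.7 and 85.1 CPM and at 179, 157 and 114 CPM, with a log2 fold change of -0.86 (adjusted p = 0.0311 from edgeR). In both genes YFP-CTRL C, the control with the highest proliferation score, was the control nearest to the Meis1-OE libraries. Tbrg4 (log2 fold change -0.58), a FASTK family protein of mitochondrial RNA processing, Pde12 (-0.71), which removes poly(A) tails from mitochondrial mRNAs, and Twnk (-0.53), the helicase of mitochondrial DNA replication, had adjusted p of 0.0315, 0.0450 and 0.0454 from edgeR. These calls depended on the setting, and so did those over all genes. With library totals 0 of the list were called lower, beside 1.11% of all genes, while the 5 estimates ran from -0.72 to -0.39. Once the proliferation score was a covariate it was also 0, beside 0.927% of all genes, with the 5 estimates between -0.49 and -0.32. Leaving out any single Meis1-OE library or YFP-CTRL B gave 0 called lower as well, beside 0.0975% to 0.417% of all genes, and the 5 estimates stayed between -0.88 and -0.47. Without YFP-CTRL A, 2 were called lower (2.63% of all genes). Without YFP-CTRL C, 26 were called lower and 6 higher, in a fit that called 15.2% of all genes lower and 16.5% higher.

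None of Polrmt, Tfam, Tefm, Lrpprc and Slirp passed the threshold in the TMM fit with all libraries. Polrmt, the mitochondrial RNA polymerase, stood at 28.05, 26.7 and 26.3 CPM in Meis1-OE and 48.9, 39.3 and 32.7 CPM in YFP-CTRL libraries, which did not overlap, with a log2 fold change of -0.58 (SE 0.16, adjusted p = 0.0771 from edgeR). Tfam, which packages mitochondrial DNA and starts its transcription, stood at 18.4, 18.6 and 19.9 CPM and at 27.2, 28.5 and 18.2 CPM. YFP-CTRL C lay at the Meis1-OE level, and the estimate was -0.38 (adjusted p = 0.240 from edgeR). Tefm, the elongation factor, had an estimate of -0.26 (adjusted p = 0.354 from edgeR). Among the other genes that the list grouped under transcription, Tfb2m was lower without overlap, with an estimate of -0.63 (adjusted p = 0.0642 from edgeR). Tfb1m and Mterf2 were higher without overlap, with estimates of 0.51 and 0.57 (adjusted p = 0.116 and 0.121 from edgeR). Lrpprc and Slirp, which together bind and stabilise the mRNAs, had estimates of -0.36 and 0.14 (adjusted p = 0.169 and 0.546 from edgeR). Polrmt did pass with DESeq2 (adjusted p = 0.0268), with edgeR on the scale of summed mt- mRNA (adjusted p = 0.0470) and with edgeR without YFP-CTRL C (adjusted p = 0.00519). Tfam and Lrpprc passed without YFP-CTRL C only (adjusted p = 0.00606 and 0.00739 from edgeR). Once the proliferation score was a covariate, the estimates of Polrmt, Tfam, Lrpprc and Slirp were -0.20, 0.06, -0.03 and -0.02, and none passed. Scaled to library totals, Polrmt, Tfam, Tefm, Lrpprc and Slirp had estimates of -0.44, -0.24, -0.12, -0.22 and 0.29, and none passed.

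**Figure D4:**
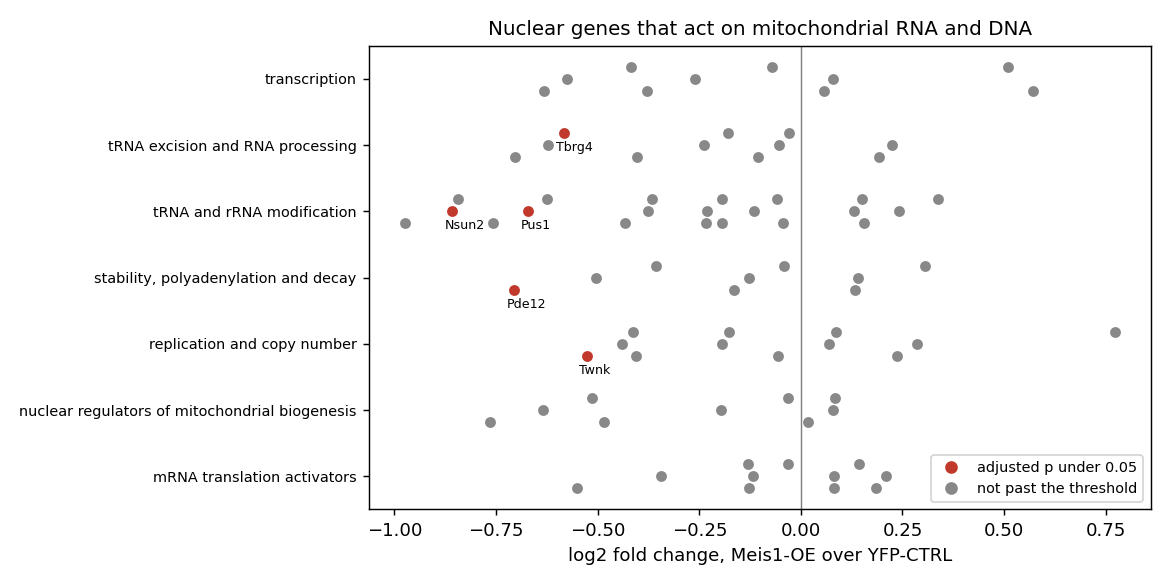
The log2 fold change of Meis1-OE over YFP-CTRL (horizontal axis) for the 83 tested nuclear genes that act on mitochondrial RNA and DNA, by function (vertical axis; height within a row only separates points). Estimates are from the TMM fit. The 5 genes past an adjusted p of 0.05, in red, are all negative, and 56 of the 83 points lie below 0.

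For the mitochondrial ribosome, which holds the 2 rRNAs, the RNA of 78 nuclear genes with Mrpl or Mrps symbols was examined. edgeR called 0 higher and 0 lower, beside 6.87% of all genes. At an unadjusted p under 0.05, 1 was higher and 17 were lower, beside 12.8% and 13.4% of all genes. In TMM-normalized CPM, 26 of the 78 were lower without overlap between conditions (15.9% of all genes) and 1 was higher (17.2% of all genes). DESeq2 called 6 of the 78, beside 12.4% of the 18158 genes to which it gave an adjusted p. The estimates were negative for 50 and positive for 28, with a median of -0.11, and these signs too were counted with TMM only. The smallest adjusted p was that of Mrps18b, a small subunit protein, at 0.0516 from edgeR, where the estimate was -0.56 on the log2 scale. Without YFP-CTRL C, 21 of the 78 were called, beside 31.7% of all genes in that fit. Adding the 5 pseudogene rows whose symbols begin the same way gave 83 rows, 80 tested, with 0 called higher, 0 lower and the same median.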

How the data were processed

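RNA-seq was from 6 libraries, 3 per condition. The deposited table gave expected counts, that is, reads estimated for each of 54429 genes without normalization; the build was mm10 per the submitters' processing notes, and the aligner, counter and annotation are not given in the sources used here. Counts were rounded. Conditions came from the labels. Replicates were transduced separately according to the study's description, and p-values measure the spread between these libraries. The members and lists were chosen with earlier results of these data known.

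Totals were 34176592 to 47956569 counts; intervals and floors (3 counts) cover counting error only. filterByExpr kept 16065 genes, 15 of them mt- rows. Conditions were compared in R 4.3.3 with edgeR 4.0.16 (TMM, quasi-likelihood test, Benjamini-Hochberg over all genes tested, adjusted p under 0.05), and with DESeq2 1.42.0 as an alternative. limma 3.58.1 was loaded by edgeR. Shares and ratios were compared by exact permutation over 20 splits, two-sided. On simulated data of 16065 genes, 200 of them changed, edgeR called 41.8% of genes changed 2-fold and 97.9% of those changed 4-fold, with 7 false calls among 141. The simulation gave every gene a dispersion of 0.05 in all libraries. In the data, YFP-CTRL pairs differed more (chi-square per degree of freedom 66.6 to 183) than Meis1-OE pairs (17.2 to 31.8), so these rates may not hold here. No 2 libraries agreed within sampling noise.

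Alternatives were other scalings, filters, a robust fit, DESeq2, a proliferation covariate, a replicate block and each library left out. Named genes were all mt- rows, Meis1, Gm26917, Malat1, Neat1 and Mki67 as library measures, Polrmt, Tfam, Tefm, Lrpprc, Slirp, and up to 5 called machinery genes per direction. Tfb2m, Tfb1m and Mterf2 were named in addition, as the other genes grouped under transcription without overlap. Of 85 machinery genes, Prorp was not listed under that symbol and Ppargc1a did not pass the filter. Mitoribosomal rows were symbols of Mrpl or Mrps and a number; 5 pseudogene rows that begin the same way were left out after their values were seen, and the counts with them are given. Malat1 took 0.204% to 1.32%, and Neat1 0.0277% to 0.105%, of each library; Mki67 stood at 628 to 672 CPM in Meis1-OE and 63.8 to 589 CPM in YFP-CTRL EC.

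Sequences were read by name from GENCODE vM1 transcripts (NCBIM37). Nuclear matches were found with BLAST 2.17.0; those of at least 300 bases were kept, and overlap was defined at 99% identity, both limits being chosen after the alignments were seen. Figures used matplotlib 3.10.9 in Python 3.11.15.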

Additional observations from a re-analysis of the deposited data

How the results depend on the processing

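No mitochondrial row was called in any of the 16 alternatives, the smallest adjusted p lying between 0.0691 (mt-Nd4l, without YFP-CTRL C) and 0.482 (mt-Nd5, without Meis1-OE B). Of 240 estimates of single rows, 224 kept their sign and 16 did not, none of them called. Scaling to the summed mt- mRNA, on which rises and falls of the mRNA rows must balance, turned mt-Atp6 to -0.14, mt-Co3 to -0.11 and mt-Nd2 to -0.0068. The proliferation covariate turned mt-Atp6 to -0.12, mt-Atp8 to -0.04035, mt-Nd1 to -0.17, mt-Nd2 to -0.0448 and mt-Nd6 to -0.14. mt-Nd3 was 0.14 with library totals and 0.0025 with at least 10 counts in every library. With each library left out in turn, mt-Atp6 ran from -0.0257 to 0.15, mt-Nd3 from -0.0964 to 0.0692, mt-Rnr2 from -0.0370 to 0.50, the log2 rRNA to mRNA ratio from -0.16 to 0.23 and the log2 ratio of mt-Nd6 to the other mRNAs from -0.0501 to 0.41. Machinery genes called higher numbered 1 without a filter (2.38% of all genes were), 1 with DESeq2 (6.21%) and 0 to 6 with a library left out (0.701% to 16.5%). Those called lower numbered 0 with library totals (1.11% of all genes), 15 on the mt- mRNA scale (6.46%), 15 with DESeq2 (6.14%), 0 with the covariate (0.927%) and 0 to 26 with a library left out (0.0975% to 15.2%). Mitoribosomal calls numbered 6 on the mt- mRNA scale (9.96% of all genes in either direction), 6 with DESeq2 (12.4%), 1 with a robust fit (6.85%) and 0 to 21 with a library left out (0.798% to 31.7%). The causes were not tested.

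A replicate block by column letter gave 0 mitochondrial calls (smallest adjusted p 0.106 for mt-Nd6) and 2 machinery genes lower, and 544 genes higher and 189 lower (1.18%) overall. Nothing states that a letter marks a pair. Deviations of same-letter libraries correlated at 0.245, 0.190 and 0.081 for A, B and C. Those of different letters ran from -0.301 (Meis1-OE A with YFP-CTRL B) to 0.249 (Meis1-OE C with YFP-CTRL B). Whether a letter marks a pair cannot be told from these values. With 3 libraries per condition, the simulation, which gave all libraries the same dispersion, called 41.8% of genes changed 2-fold. No exact permutation p could fall below 0.1.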
